A study of Mus musculus with 8 samples.

Results

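Motile cilia and ependymal genes were taken from the authors' deposited table by symbol. They were the rows of the families Dnah, Dnaic, Dnaaf, Cfap, Rsph, Spag and Tekt followed by a digit, with Foxj1, Ccdc153, Tmem212, Hydin, Rarres2 and Mia. The rule found 31 of 17171 genes. It used names only and no measured value. The Dnah and Cfap patterns matched 0 rows, because the table lists those families under older symbols, and the genes concerned are described after the 31. The data are the hippocampus of 2-month-old C57BL/6 mice, measured by stranded mRNA sequencing. The SUMO2-cKO group (Sumo2 f/f;Emx1-Cre, 4 samples) carries floxed Sumo2 alleles and the Emx1-Cre recombinase. The control group (Sumo2 f/f, 4 samples) carries the same floxed alleles without Cre. Emx1-Cre acts in the dorsal forebrain lineage, mainly in excitatory neurons and glia, so the RNA also comes from cells that keep Sumo2. The labels give no sex, litter or batch and do not say that samples came from separate animals, so each p-value reflects sample-to-sample spread that could be technical in part.

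Motile cilia are beating hairs built on an axoneme, a ring of doublet microtubules around a central pair. Dynein motors on the doublets drive the beat, and radial spokes and the central pair control it. In the brain they stand on ependymal cells, which line the ventricles and move cerebrospinal fluid, and Foxj1 is the transcription factor that switches on the genes they need. RFX factors act beside it at a DNA element called the X-box. In a whole-hippocampus sample such cells are a minor part, brought in with the ventricular surface, and fewer cells of a type and less RNA per cell cannot be told apart.

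No motile cilia or ependymal gene passed an adjusted p of 0.05. In the authors' deposited table, which is a DESeq2 comparison per the submitters' processing notes, 0 of 31 members were called, against 1.5% of all genes (0.967% higher and 0.53% lower). An unadjusted p under 0.05 was reached by 4 members, 3 lower (4.17% of all genes) and 1 higher (4.2% of all genes), which is 12.9% of the members against 8.37% of all genes. The signs were uneven: 24 of the 31 members (77.4%) had a negative log2 fold change of SUMO2-cKO over control in the authors' deposited table, against 50.1% of all genes. The median log2 fold change was -0.09 over the members and -0.00022 over all genes, and the median Wald statistic, the log2 fold change in units of its standard error, was -0.66 against -0.0031. At an adjusted p under 0.1 the count was also 0, against 2.14% of all genes. No test is attached to these counts, since genes of one cell type vary together and the members were chosen with earlier results known.

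The table holds 8 columns of normalized values per sample, whose headings fit no sample title in the labels, so they were tied to no group and left unused. Levels and spread per sample are therefore not analysed here, and each value below is the authors' log2 fold change of SUMO2-cKO over control with a standard error (SE) obtained by dividing it by their statistic. The targeted gene does not check the labels: in the authors' deposited table, Sumo2 itself was at 0.42 with an SE of 0.252 and an adjusted p of 0.761. Directions therefore hold for the group labelled SUMO2-cKO.

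Foxj1 had an unadjusted p under 0.05 but no window among the RefSeq windows used here. Promoter windows follow for the other members under 0.05, Hydin, Dnaaf3 and Tekt5, and for the ependymal markers Ccdc153 and Tmem212. They are places where RFX and forkhead factors could act. Each runs 5′ to 3′ from 250 bases before to 50 bases after the start of the gene on GRCm38.p6. Capitals mark GTTGCC, an arm of the X-box, and TGTTTNC, letters that take in forkhead cores, on either strand. The windows are chr8:110266727-110267026 (plus strand) for Hydin, chr9:44240427-44240726 (plus) for Ccdc153, chr3:27896319-27896618 (minus) for Tmem212, chr7:4532416-4532715 (minus) for Dnaaf3 and chr16:10395406-10395705 (minus) for Tekt5.
Hydin: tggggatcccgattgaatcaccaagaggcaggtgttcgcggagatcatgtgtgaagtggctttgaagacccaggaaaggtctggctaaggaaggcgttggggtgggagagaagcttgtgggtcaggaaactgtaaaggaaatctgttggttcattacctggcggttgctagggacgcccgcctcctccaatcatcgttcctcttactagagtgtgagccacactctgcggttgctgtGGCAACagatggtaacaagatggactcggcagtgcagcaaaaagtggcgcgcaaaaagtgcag
Ccdc153: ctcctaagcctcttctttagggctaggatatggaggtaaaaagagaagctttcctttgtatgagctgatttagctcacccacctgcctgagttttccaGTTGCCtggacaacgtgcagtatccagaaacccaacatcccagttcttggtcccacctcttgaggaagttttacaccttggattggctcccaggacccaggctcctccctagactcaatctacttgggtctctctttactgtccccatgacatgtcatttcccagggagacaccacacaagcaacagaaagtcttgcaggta
Tmem212: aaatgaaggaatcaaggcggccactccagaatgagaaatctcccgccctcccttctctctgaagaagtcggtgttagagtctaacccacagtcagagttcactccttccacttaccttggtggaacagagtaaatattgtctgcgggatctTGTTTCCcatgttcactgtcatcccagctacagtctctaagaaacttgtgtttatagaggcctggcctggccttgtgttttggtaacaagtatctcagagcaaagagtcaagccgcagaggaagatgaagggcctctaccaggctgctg
Dnaaf3: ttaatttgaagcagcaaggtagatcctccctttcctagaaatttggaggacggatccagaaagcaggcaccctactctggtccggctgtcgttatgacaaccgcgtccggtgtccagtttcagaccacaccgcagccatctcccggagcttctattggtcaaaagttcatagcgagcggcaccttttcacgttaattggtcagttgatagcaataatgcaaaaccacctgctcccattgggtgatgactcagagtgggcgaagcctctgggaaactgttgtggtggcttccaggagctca
Tekt5: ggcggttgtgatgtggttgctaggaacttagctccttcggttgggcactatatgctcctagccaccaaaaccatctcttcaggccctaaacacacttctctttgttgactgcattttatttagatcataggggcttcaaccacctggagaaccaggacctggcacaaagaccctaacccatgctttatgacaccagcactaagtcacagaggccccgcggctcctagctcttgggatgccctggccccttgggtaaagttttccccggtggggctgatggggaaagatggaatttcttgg

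The window of Hydin holds GTTGCC on the reverse strand, and that of Ccdc153 holds it on the forward strand. The Tmem212 window holds TGTTTCC, which fits TGTTTNC but is neither TGTTTAC nor TGTTTGC. The windows of Dnaaf3 and Tekt5 hold neither GTTGCC nor TGTTTNC. The RefSeq windows used here held 28 windows for 24 of the 31 members. GTTGCC was found in 12 of these 28 windows (42.9%), against 12.5% of all 32851 windows. The 11 genes concerned were Ccdc153, Dnaaf2, Dnaic2, Hydin, Rsph3b, Spag16, Spag6, Spag8, Tekt1, Tekt2 and Tekt4. TGTTTNC was found in 11 of 28 windows (39.3%), against 20.5% of all windows. Besides TGTTTAC and TGTTTGC it takes in TGTTTCC and TGTTTTC, so this share is not one of forkhead cores alone. TGTTTAC alone was in 1 member window (3.57%) against 3.65%, and TGTTTGC in 6 (21.4%) against 5.07%. The full palindrome GTTNCCNNGGNAAC was in 0 of 28 and in 0.451% of all windows. Only these exact letters with their fixed spacer were counted, so paired arms that differ by a base were missed. Other spellings had been looked at before these were kept, so the shares are a description of letters and name no bound site.

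Foxj1, the regulator of the program, was among the members with the smallest p-values. Foxj1 (ENSMUSG00000034227, chromosome 11, 116330704 to 116335399 on GRCm38 in GENCODE M21) was at 0.812-fold in the authors' deposited table, a log2 fold change of -0.30 with an SE of 0.113 and a 95% interval of -0.52 to -0.08. Its unadjusted p was 0.0081 and its adjusted p 0.229, so the value did not pass over all genes. The other regulators of multiciliated cells came from a list of 22 symbols, which include alternative names of the same gene, and 18 genes were measured. Of these 18 genes 0 were called, with 13 negative values and a median of -0.05. An unadjusted p under 0.05 was reached by 1 of them, Gmnc (5.56%, against 8.37% of all genes). Gmnc, which starts the multiciliated program, in the authors' deposited table stood at -0.50 (SE 0.232, 95% interval -0.95 to -0.05, adjusted p = 0.478), and Mcidas, which acts after it, at -0.40 (SE 0.599). Rfx3 and Rfx2, which bind the X-box, stood at 0.11 (SE 0.0621) and -0.12 (SE 0.140). After Gmnc, the smallest p-values of the list belonged to Myb, at -0.47 (SE 0.261), and Fank1, at -0.30 (SE 0.170). Positive values were found for 5 of the 18 genes, among them Trp73 at 0.18 (SE 0.182) and Plk4 at 0.14 (SE 0.176). The intervals of Foxj1 and Gmnc lie below 0, and that of Mcidas is too wide to give a direction.

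**Figure D1:**
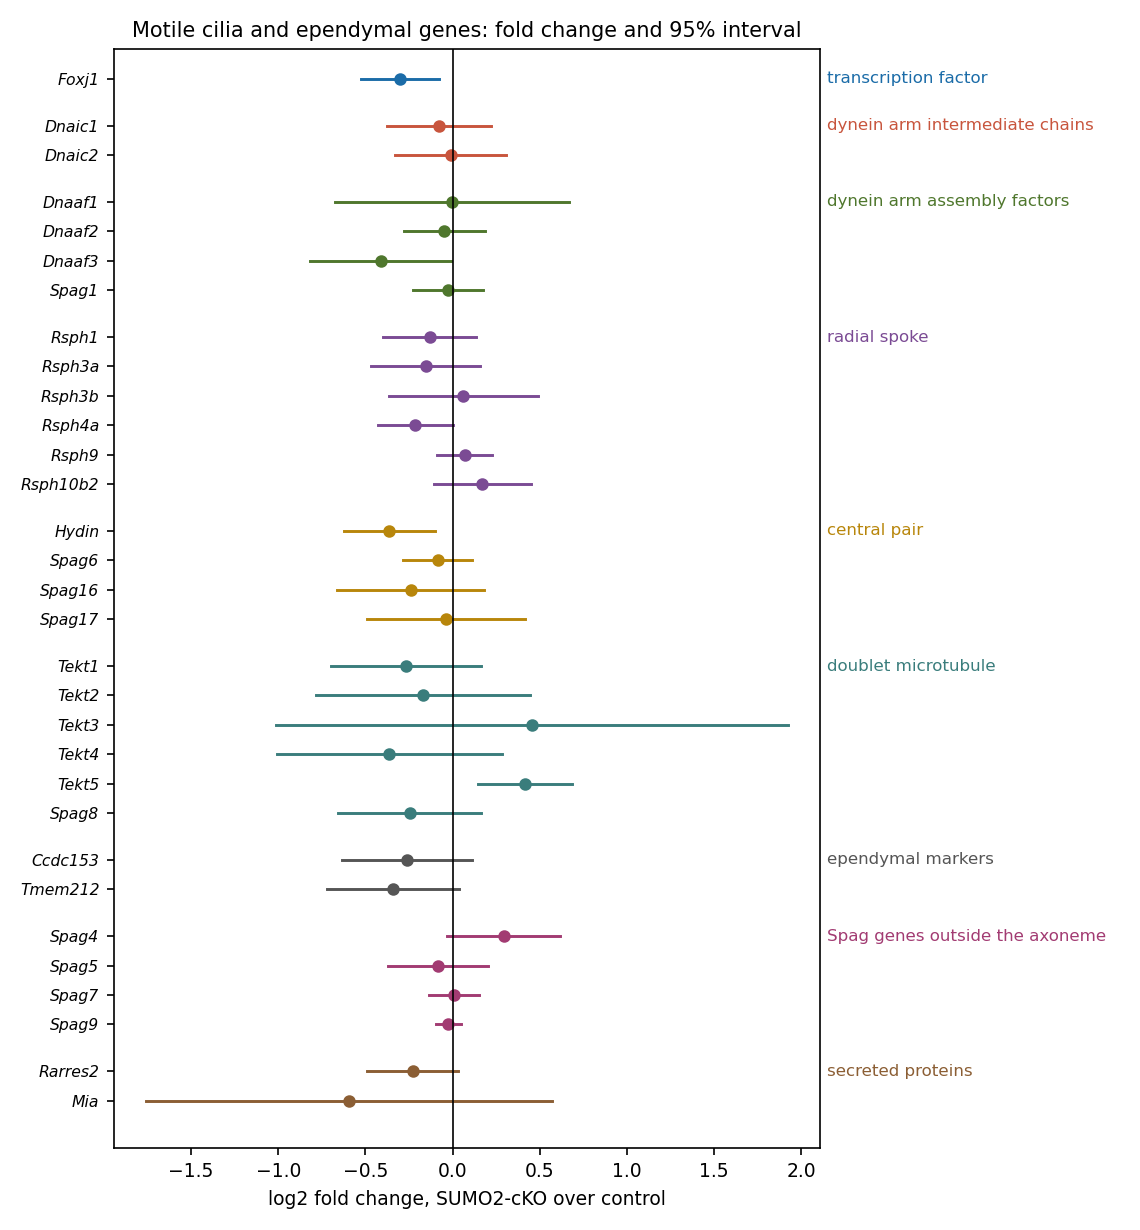
Log2 fold change of SUMO2-cKO over control for the 31 members, grouped by role. Points are the values of the authors' deposited table and lines their 95% intervals. Intervals clear of 0 belong to Foxj1, Dnaaf3 and Hydin on the lower side and Tekt5 on the higher side.

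The 4 members of the central pair had negative values. In the authors' deposited table, Hydin, a large protein of the central pair whose loss causes hydrocephalus in mice, stood at -0.36 (SE 0.134, 95% interval -0.62 to -0.10, 0.778-fold, unadjusted p = 0.00663, adjusted p = 0.202). Hydin (ENSMUSG00000059854) lies on chromosome 8, 110266977 to 110610253, on GRCm38 in GENCODE M21. Spag16 stood at -0.24 (SE 0.214), Spag6 at -0.09 (SE 0.102) and Spag17 at -0.04 (SE 0.230) in the authors' deposited table. The gene listed as Spag6 is Spag6l in GENCODE M21. Of these 4 genes only Hydin has an interval clear of 0, and whether it differs from the other 3 was not tested.

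Radial spoke genes did not share a direction, with 3 of 6 values negative and a median of -0.03. The spoke head gene Rsph4a had in the authors' deposited table a value of -0.21 (SE 0.110, 95% interval -0.43 to 0.0018, adjusted p = 0.605). Rsph9, another head protein, stood at 0.07 (SE 0.0806) and Rsph1 at -0.13 (SE 0.137). Rsph10b2, which is Rsph10b in GENCODE M21, stood at 0.17 (SE 0.142). The near copies Rsph3a and Rsph3b, at -0.15 (SE 0.158) and 0.06 (SE 0.218) in the authors' deposited table, share most of their sequence. Of their 50-base windows 73.2% and 75.8% occur in the other copy, so their separate values are uncertain.

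Of the 6 members that are dynein arm intermediate chains or assembly factors, Dnaaf3 alone had an interval clear of 0. The intermediate chains of the outer arm, Dnaic1 and Dnaic2, stood at -0.08 (SE 0.151) and -0.01 (SE 0.164) in the authors' deposited table. Among the factors that build dynein arms in the cytoplasm, Dnaaf3 (ENSMUSG00000055809) was at 0.752-fold in the authors' deposited table, or -0.41 on the log2 scale (SE 0.207, 95% interval -0.82 to -0.01, unadjusted p = 0.0464, adjusted p = 0.577). Spag1, also an assembly factor, stood at -0.03 (SE 0.102), Dnaaf2 at -0.05 (SE 0.119) and Dnaaf1 at -0.0029 (SE 0.343). Dnaaf3 shares 12.6% of its exonic bases with genes on the opposite strand. Dnaaf2 has 37.9% of its windows in other transcripts and 32.7% of its exonic bases overlap genes on the opposite strand. Of the exonic bases of Dnaaf1 20.7% overlap Taf1c. Opposite-strand overlaps were also present for Tekt2 (20.8%) and Spag17 (15.7%). The sources used here do not give the strand setting of the counting, so reads from such partners cannot be told apart.

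Tektins, filament proteins inside the doublet microtubules, held the member with the smallest p-value, and it was on the higher side. Tekt5 (ENSMUSG00000039179, chromosome 16, 10357948 to 10395490, minus strand) stood at 0.42 (SE 0.137, 95% interval 0.15 to 0.69, 1.34-fold) in the authors' deposited table. Its unadjusted p was 0.00235 and its adjusted p 0.107. Tekt5 is best known from sperm flagella. Tekt1, a tektin of motile cilia, stood at -0.27 (SE 0.220), Tekt2 at -0.17 (SE 0.312) and Tekt4 at -0.36 (SE 0.329) in the authors' deposited table. Spag8, a protein inside the doublets, stood at -0.24 (SE 0.209). Tekt3, at 0.46 (SE 0.750, 95% interval -1.01 to 1.92), was the least precise member, and its interval allows a change of 2-fold in either direction.

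The members Tmem212 and Ccdc153, which mark ependymal cells, and the secreted Rarres2 and Mia had negative values. In the authors' deposited table, Tmem212, a membrane protein used as an ependymal marker, stood at -0.34 (SE 0.193, unadjusted p = 0.0764, adjusted p = 0.707) and Ccdc153, a coiled-coil protein of motile cilia, at -0.26 (SE 0.190, adjusted p = 0.904). Rarres2, which encodes the secreted chemoattractant chemerin, stood at -0.23 (SE 0.134, adjusted p = 0.752), and 33.6% of its exonic bases overlap Lrrc61 on the opposite strand. Mia, a small secreted protein known from cartilage and melanoma, had the lowest value of all members, -0.59, with an SE of 0.594 in the authors' deposited table. Of its windows 68.8% also occur in the overlapping Gm21983.

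The Spag symbol stands for sperm-associated antigen and brings in genes that are not axonemal. Spag9 is a scaffold of JNK signalling and vesicle motors, Spag5 a mitotic spindle protein and Spag4 a SUN protein of the nuclear envelope. They stood at -0.02 (SE 0.0365), -0.08 (SE 0.145) and 0.29 (SE 0.166) in the authors' deposited table, and Spag7 at 0.0086 (SE 0.0736). Without these 4 genes and the secreted Rarres2 and Mia, 20 of 25 members were negative with a median of -0.13, over 1.5 times the median of all 31. Spag9 and Spag7 are the members with the narrowest intervals, -0.10 to 0.05 and -0.14 to 0.15.

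Precision set what could be called. The median SE was 0.158 over the members and 0.0940 over all genes, and 3 members, Spag9, Spag7 and Rsph9, were at or below the latter value. The smallest absolute Wald statistic among the genes called in the authors' deposited table was 3.37. At that value the smallest log2 fold change that could be called was 0.38 for Foxj1, 0.45 for Hydin and 2.53 for Tekt3. A change of 1.5-fold could be called for 18 of the 31 members and one of 2-fold for 26. The 95% interval excluded a fall of 1.5-fold for 19 members and a fall of 2-fold for 28. The values of Foxj1 and Hydin, at -0.30 and -0.36, are smaller than what their SE allows to be called, which restates that they were not called.

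**Figure D2:**
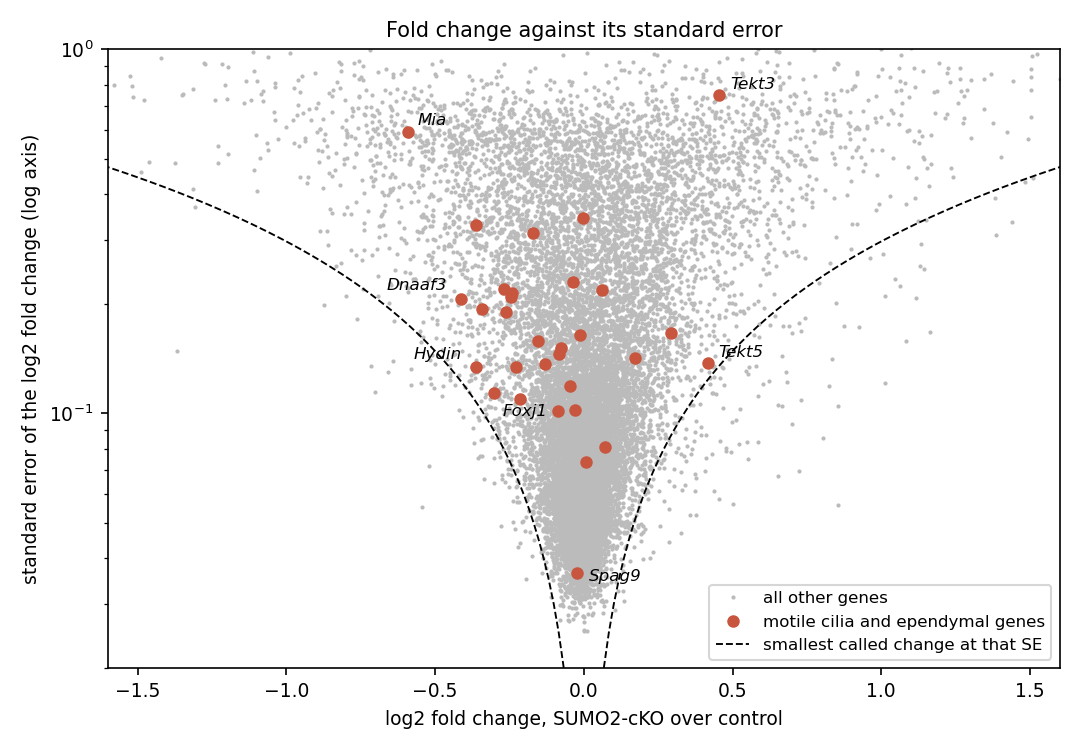
Log2 fold change of SUMO2-cKO over control (horizontal axis) against its SE (vertical log axis) for the genes of the authors' deposited table, with the 31 members as large points. Genes beyond the axis limits are not drawn. The dashed lines mark 3.37 times the SE. Every member lies between them, as every gene that was not called does by construction.

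The members lie on 15 chromosomes, with 7 on chromosome 11 and 5 on chromosome 17 in GENCODE M21. Rows that GENCODE M21 names by the same families, though the authors' deposited table does not, add 45 protein-coding genes. Choosing them by identifier came after the table was seen. Of these 45 genes 0 were called, 32 (71.1%) had a negative value and the median log2 fold change was -0.09. An unadjusted p under 0.05 was reached by 5 of them (11.1%, against 8.37% of all genes).

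Dynein heavy chains are the motors themselves. In the authors' deposited table, Dnahc12 (Dnah12), an inner arm chain, came closest to the threshold, at -0.55 (SE 0.168, 95% interval -0.88 to -0.22, adjusted p = 0.0633). In the same table, Dnahc6 (Dnah6) stood at -0.39 (SE 0.180, adjusted p = 0.487) and Dnahc3 (Dnah3) at -0.42 (SE 0.247, adjusted p = 0.759), both of the inner arm. Of the 8 inner arm chains 6 were negative, with a median of -0.18. The exceptions were Dnahc7a and Dnahc7b, at 0.40 (SE 0.370) and 0.07 (SE 0.288) in the authors' deposited table, near copies with 40.3% and 48.4% of their windows in other genes. The outer arm chains leaned the other way, with 4 of 5 positive and a median of 0.19. In the authors' deposited table, Dnahc9 (Dnah9) stood at 0.20 (SE 0.0822, unadjusted p = 0.0139, adjusted p = 0.317) and Dnahc5 (Dnah5) at 0.19 (SE 0.0933, unadjusted p = 0.0436, adjusted p = 0.564). These were 2 of the 5 outer arm chains (40.0%, against 8.37% of all genes with an unadjusted p under 0.05). The other positive chains were imprecise, Dnahc17 (Dnah17) at 0.33 (SE 0.494) and Dnahc8 (Dnah8) at 0.10 (SE 0.293). Dnahc11 (Dnah11) was the negative one, at -0.28 (SE 0.199). The arms were not tested against each other.

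Cilia and flagella associated proteins (Cfap) line the axoneme in many places. Of 29 measured, 22 (75.9%) were negative, with a median of -0.09, and 1 (3.45%) had an unadjusted p under 0.05. Wdr96 (Cfap43), known in Chlamydomonas as part of the tether of an inner arm dynein, in the authors' deposited table stood at -0.49 (SE 0.180, 95% interval -0.85 to -0.14, adjusted p = 0.195). Among the precise ones, Ccdc104 (Cfap36) stood at -0.02 (SE 0.0469) and 4933411K20Rik (Cfap97) at 0.02 (SE 0.0506). The highest value was 0.25 (SE 0.158) for Ccdc37 (Cfap100) and the lowest -0.64 (SE 0.415) for Ccdc42b (Cfap73) in the authors' deposited table.

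**Figure D3:**
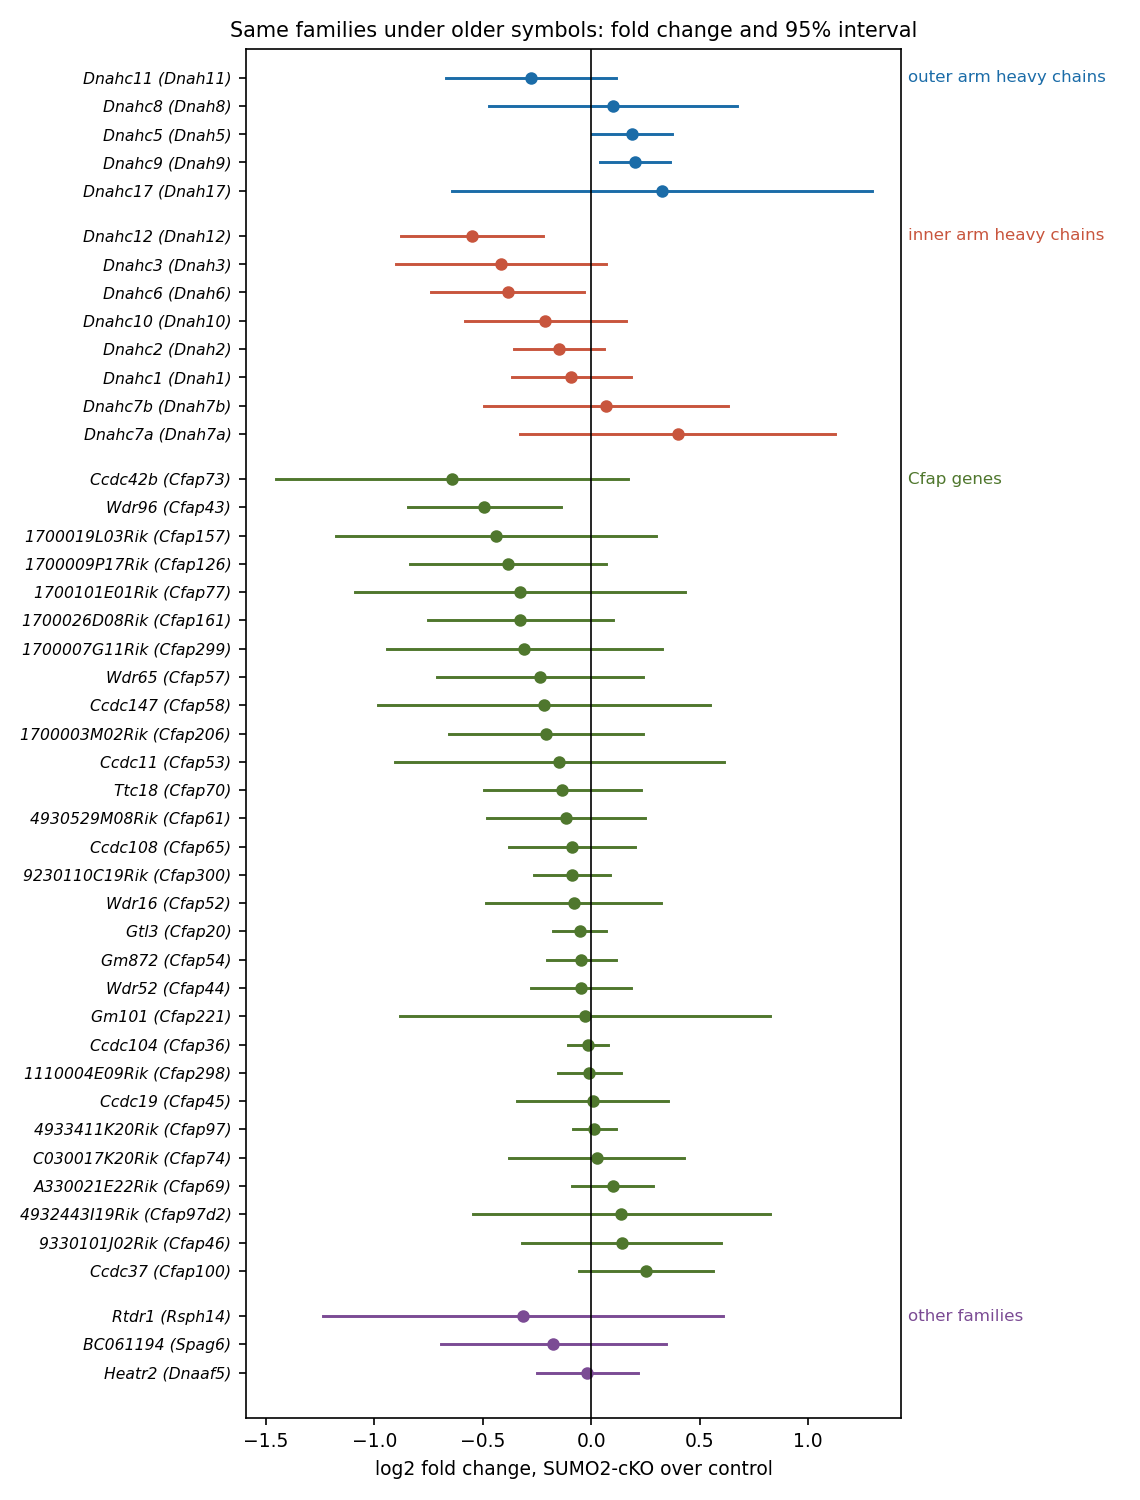
Log2 fold change of SUMO2-cKO over control with its 95% interval for the 45 genes of the same families that the authors' deposited table lists under older symbols, with the GENCODE M21 symbol in brackets. Dnahc12, Dnahc6 and Wdr96 lie below 0 and Dnahc5 and Dnahc9 above it.

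Lists of other axonemal genes, with dynein assembly genes among them, held 85 symbols, which include alternative names of the same gene. From them 74 genes were measured, 4 of which are also among the 45 above. Of the 74 genes 0 were called, 55 (74.3%) were negative and the median was -0.12. An unadjusted p under 0.05 was reached by 5 of them (6.76%, against 8.37% of all genes), each lower. Those with the smallest p-values in the authors' deposited table were 1600029I14Rik, which is Nme9, at -0.89 (SE 0.316, adjusted p = 0.172), and Ak7, an adenylate kinase of the axoneme, at -0.34 (SE 0.127, adjusted p = 0.209). Dnali1, a light intermediate chain of the inner arm, stood at -0.45 (SE 0.174, adjusted p = 0.262) and Armc3 at -0.60 (SE 0.245, adjusted p = 0.321). By list, the medians were -0.06 over 26 genes of dynein arms and their docking and assembly, -0.12 over 13 of the nexin-dynein regulatory complex, -0.12 over 21 of the central pair and spokes, and -0.16 over 16 inside the microtubules. Intraflagellar transport, which builds primary cilia on neurons and glia as well as motile cilia, had a median of 0.02 over 28 genes with 10 negative. Ttc30b, at -0.19 (SE 0.0851, adjusted p = 0.452), had the smallest p-value of that list in the authors' deposited table.

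Markers of ependymal cells outside the rule were negative for 14 of 18 genes, with a median of -0.17 and 0 called. Of the 18 genes 3, Ak7, Enkur and Dynlrb2, are also among the 74 genes of the axonemal lists. The unadjusted p was under 0.05 for 4 of the 18 (22.2%, against 8.37% of all genes). Of these 4 genes 2 were higher (4.2% of all genes) and 2 lower (4.17% of all genes). The smallest p-values of the list in the authors' deposited table belonged to the positive Nnat, at 0.28 (SE 0.0930, adjusted p = 0.111), and Cd24a, at 0.35 (SE 0.126, adjusted p = 0.177). The lower genes were Ak7, given above, and Sntn, a protein of ciliary tips, at -0.77 (SE 0.380, adjusted p = 0.565). Several markers of the list are known from other cells too, such as Nnat and Cd24a from neurons, Vim from glia and Acta2 from smooth muscle. Choroid plexus epithelium lies beside the ependyma on the ventricle wall. Its markers were negative for 23 of 24 genes, with a median of -0.21, a range of -0.33 to 0.05 and 0 called. Ttr, the transthyretin gene that this epithelium expresses strongly, stood at -0.26 (SE 0.542) in the authors' deposited table. The median SE of the choroid plexus markers was 0.540, against 0.158 for the members. How far the amount of ventricular tissue in each sample moves with the members' values was not tested.

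Markers of other hippocampal cells gave other medians. Excitatory neuron markers had 5 of 10 negative values and a median of -0.0035, and astrocyte markers 2 of 8 and a median of 0.04. Of these 18 genes 0 were called in the authors' deposited table. Mature oligodendrocyte markers were negative for 8 of 8 genes with a median of -0.44. All 8 had an unadjusted p under 0.05, against 4.17% of all genes under it and lower. Of these 8 genes 2 were called, against 0.53% of all genes called lower. They were Ermn at -0.55 (SE 0.121, adjusted p = 0.00122) and Mog at -0.45 (SE 0.129, adjusted p = 0.0385). All markers of the 3 lists are in the table, which gives comparisons and, as used here, no levels.

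**Figure D4:**
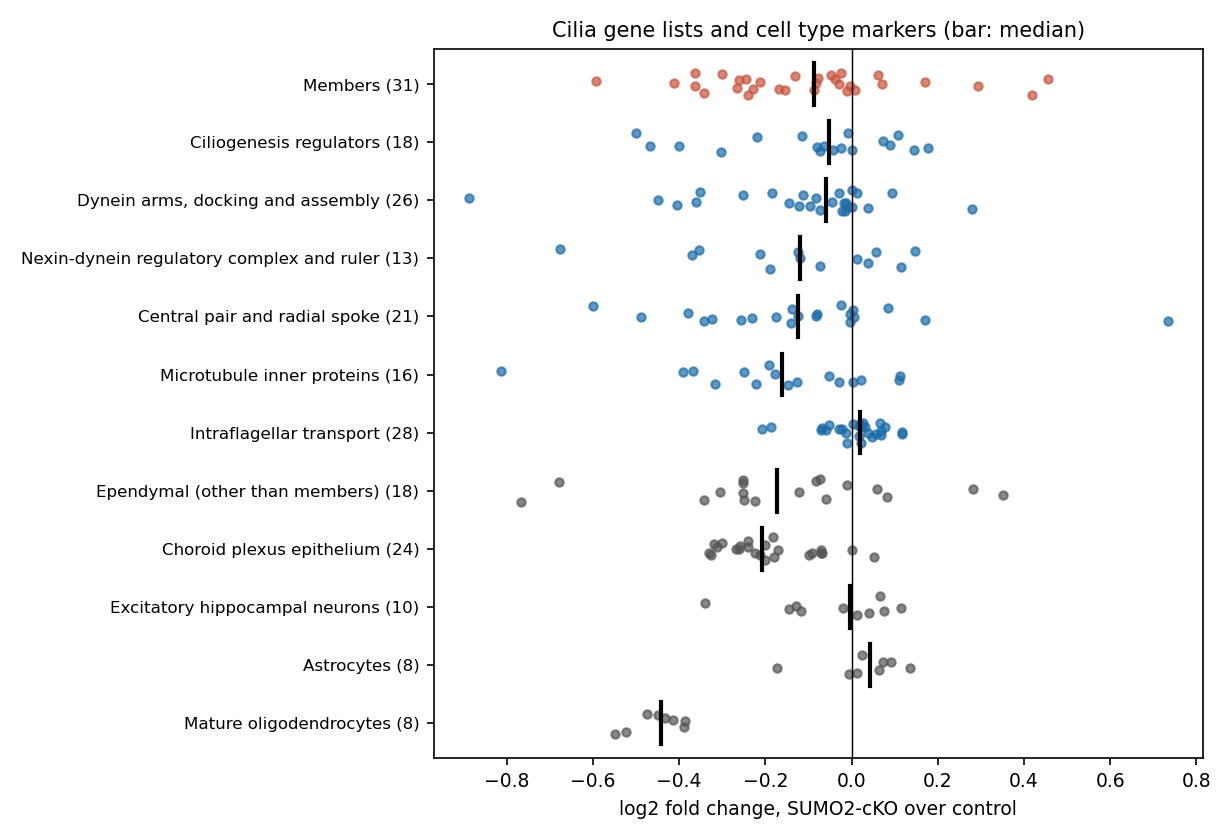
Log2 fold change of SUMO2-cKO over control in the authors' deposited table for the members (red), the cilia lists (blue) and cell type markers (grey), 1 point per gene with the median as a bar and the number of genes in brackets. Medians of the axonemal, ependymal and choroid plexus lists lie below 0, that of intraflagellar transport is 0.02 and that of mature oligodendrocytes -0.44.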

How the data were processed

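RNA of 4 SUMO2-cKO and 4 control samples of hippocampus was sequenced from stranded mRNA libraries, per the labels' protocols. Reads were trimmed, aligned, counted and compared by the authors, and the submitters' processing notes list DESeq2, HTSeq, STAR, cutadapt and Trim Galore with no version. The sources used here do not give the genome build, the annotation or the strand setting. Per the file headers, each gene's deposited values are the log2 of the knockout to wild type ratio, a Wald statistic (a score), a p-value and its adjusted form. A total of 8 columns of values per sample were not used, so no gene-level test of the samples was run and depth is not analysed here.

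Dividing the log2 value by the statistic gave the standard error, and 95% intervals assume normality. Recomputed p-values lay within 2.8e-15 of the deposited ones, and Benjamini-Hochberg values within 9.6e-15. Genes were called at an adjusted p under 0.05 over all 17171 genes. Of the identifiers 16955 matched GENCODE M21 (GRCm38), all 31 members among them. Shared sequence is the share of 50-base windows of a gene's coding transcripts found in transcripts of other genes. Promoter windows are from RefSeq. All members were open to naming. Full values were set for Foxj1, Ccdc153, Tmem212, Hydin, Rarres2 and Mia, and for members with the smallest p or SE of each role. For other lists, called genes and those with the smallest p were set. Mcidas, Rfx2, Trp73, Plk4, Ttr and the genes under older symbols were added after their values were seen. Members and lists were chosen with earlier results of these data known. The code for SE, intervals and adjusted p was run on values simulated with normal errors. Such values cannot show whether normality holds for 4 against 4 samples. Calculations were run in Python 3.11.15 (scipy 1.17.1, pandas 2.3.3, numpy 2.4.6), with plots from matplotlib 3.10.9.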

Additional observations from a re-analysis of the deposited data

How the results depend on the processing

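The count of 0 called members stayed at 0 with an adjusted p of 0.1 (against 2.14% of all genes). It was also 0 with the rule matched to GENCODE M21 symbols, which gives 76 genes. Requiring 1.5-fold or more as well, or Bonferroni, is stricter than the main setting. From a count of 0 these settings could only return 0. The median log2 fold change of -0.09 became -0.16 without the Spag family (22 genes) and -0.13 without the Spag genes outside the axoneme and the secreted proteins (25 genes). The cause was not tested. It stayed between -0.09 and -0.08 in the other settings. Of these, keeping genes listed as protein coding kept all 31 members, so its values could not differ. The count of 24 negative values among 31 became 56 of 76 with GENCODE M21 symbols, by construction of a longer list, and 17 of 22 without the Spag family. It was 20 of 26 with an SE of at most 0.25. The GENCODE M21 matching and the setting without 6 genes were chosen after seeing the data. No sign of a median turned in the settings run. No paired analysis was possible because no column of sample values carries a label's name. For the same reason other tools, pseudocounts, filters and leaving out each sample were planned but not run. Depth is seen here only through the SE.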
